A study of Mus musculus with 45 samples.

Results

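Keratins, cell junction genes and the regulators that switch cells between epithelial and mesenchymal states were followed across 15 mouse *PyMT*+ mammary tumour cell lines. The set holds 44 named genes of the 54838 in the count table, chosen by symbol as 12 keratins, 5 adhesion receptors, 6 tight-junction genes, 6 desmosome genes, 5 epithelial regulators, 6 mesenchymal regulators and 4 mesenchymal or contractile genes. All 44 were found in the table. RNA was sequenced from cultured lines in technical triplicate, giving 45 libraries. The 2 parental lines, YEJG and YEJH, are labelled as mammary gland primary tumour, and the other 13 carry the name of one of them. The fat-pad tumour lines are YEJG-FP and YEJH-FP1 to YEJH-FP5, cultured from the tumours of mice that had received *PyMT*+ cells in the mammary fat pad, and the lung lines are YEJG-M1, YEJG-M2 and YEJH-M1 to YEJH-M5. Lung lines are labelled "whole lung", or "lung metastases" for YEJH-M3, and stem from small lung lesions in mice whose primary tumour had already been removed. All groups share the polyoma middle T oncogene, which in MMTV-*PyMT* mice is driven in mammary epithelium by the mouse mammary tumour virus promoter. No other allele or agent, and no age, is given for any line, and whether a line is a single clone is not stated. The YEJG fat-pad group is 1 line and each parental group is 1 line, so that the spread between lines could be measured within YEJH and, over 2 lines, within the YEJG lung group.

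Epithelial cells are held together by adherens junctions built on E-cadherin, by claudin and occludin strands at tight junctions, and by desmosomes that anchor the keratin filaments of neighbouring cells to each other. Keratin filaments are obligate pairs of a type II and a type I protein, with *Krt8* and *Krt18* the usual pair of luminal mammary cells and *Krt5* and *Krt14* that of basal cells. In epithelial-mesenchymal transition the transcription factors of the ZEB, SNAI and TWIST families repress junction genes, vimentin replaces keratins as the main intermediate filament, and GRHL2, OVOL1 and the splicing factors ESRP1 and ESRP2 act on the epithelial side.

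Libraries held from 9723860 to 16943900 reads assigned to genes. Values are CPM, a read count relative to the TMM-scaled library total, averaged over the 3 technical repeats of a line and given with the SD between repeats (n = 3) or between lines, and counts summed per line were the unit of the edgeR and DESeq2 comparisons between groups. Where limma is named for these comparisons, the 3 technical repeats entered as separate libraries, with a correlation estimated within lines. In bulk RNA, fewer expressing cells and less RNA per cell cannot be told apart. Library names fall into a pair of naming series, with 1 or 2 repeats of every line in each, and 4 of 36 tested members differed between series within lines (edgeR, 15.9% of all tested genes did), of which *Krt8* was lower in series B by a log2 difference of -0.37 and *S100a4* by -0.44, and *Twist1* was higher by 0.14 and *Grhl2* by 0.069. One library of YEJG-M1 carries the name of a YEJH line and was placed by its title. Its omission left the number of members called at 27, 29, 23 and 24 in the comparisons between origins, between lung lines, of the lung contrasts and within YEJG described below. The shares of all genes called were then 39.8%, 33.1%, 12.8% and 16.3% in the same order.

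The 44 members split into 37 that could be tested in at least 1 comparison and 7 with hardly any reads. The near-silent members were the basal keratin genes *Krt5* with 35 reads in all 45 libraries together and *Krt15* with 23, the simple-epithelial keratin gene *Krt20* with 24, *Krt23* with 2, the P-cadherin gene *Cdh3* with 19, the mesenchymal cadherin gene *Cdh11* with 16 and the desmocollin gene *Dsc2* with 3. Among the tested members, both YEJG lung lines lay above all 10 YEJH fat-pad and lung lines for 7, below all 10 for 23, and overlapped them for 7. Over the 15892 genes tested between lung lines, line means separated in this way for 44.7%, with 22.5% above and 22.1% below. The map of all tested members shows these YEJG lung lines as the columns that depart from the rest, with YEJG-FP part of the way towards them.

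**Figure D1:**
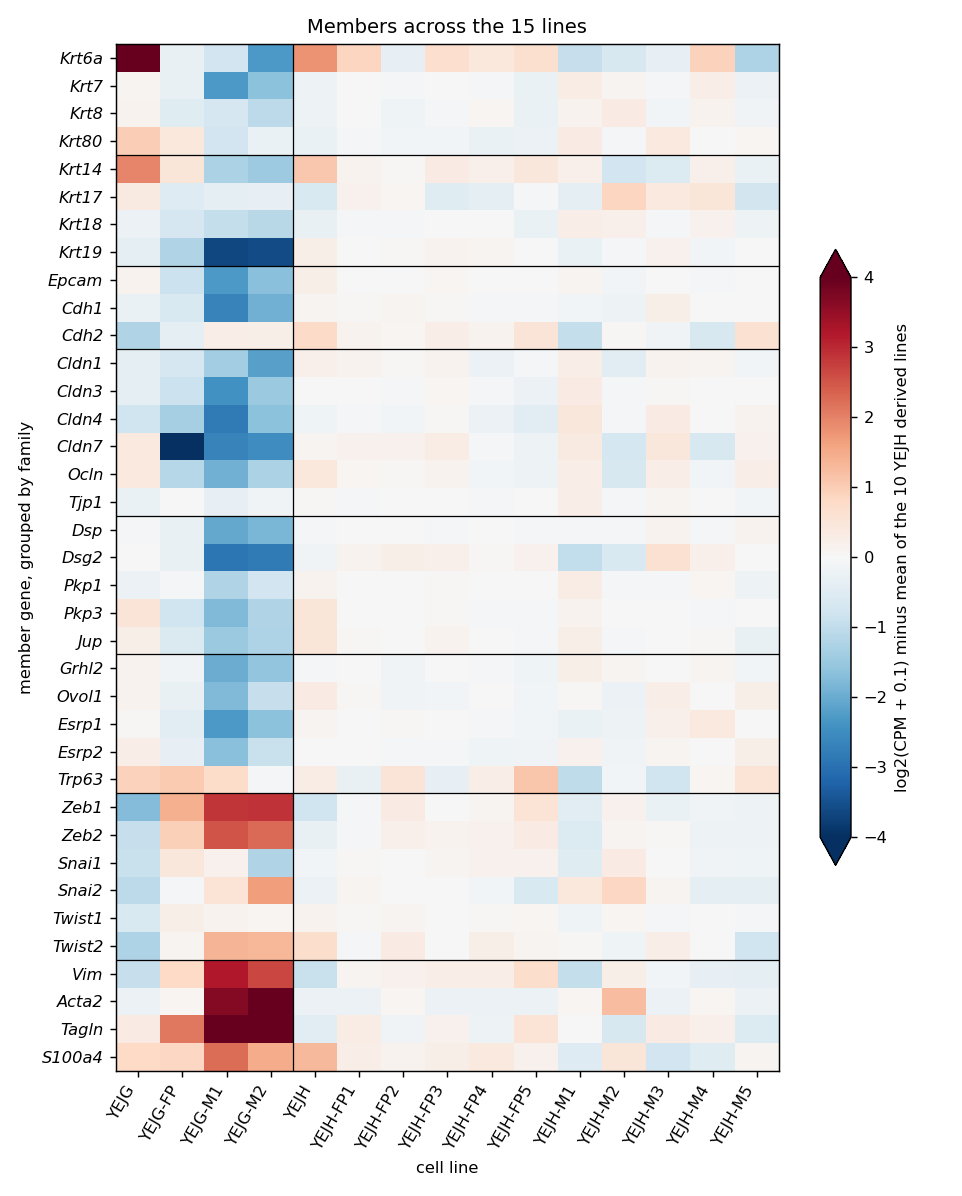
Heat map of the 37 tested members (rows, grouped by family) in the 15 lines (columns); colour is log2(CPM + 0.1) of a line's mean minus the mean of the 10 YEJH fat-pad and lung lines, limited to 4 units either way. The YEJG-M1 and YEJG-M2 columns are blue for most keratin, junction and epithelial regulator genes and red for *Zeb1*, *Zeb2*, *Twist2*, *Vim*, *Acta2*, *Tagln* and *S100a4*.

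Simple-epithelial keratins made up most keratin RNA in every line. Per kilobase of canonical transcript, *Krt8* averaged 1509.96 CPM per kb in the YEJH lung lines (n = 5) and *Krt18* 1659.8, *Krt7* 717, *Krt14* 172 and *Krt19* 109.7. *Krt80* reached 21.9 CPM per kb there, *Krt6a* 3.06 and *Krt17* 0.543. The partner of *Krt14* in basal cells, *Krt5*, stood at 0.0388 CPM per kb, so that the basal type I keratin was present with almost none of its usual partner.

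**Figure D2:**
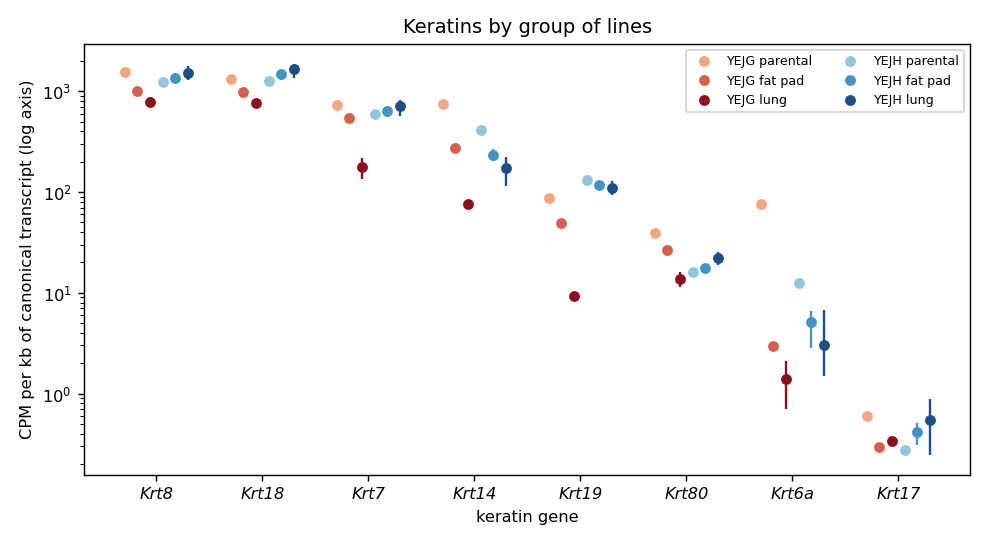
CPM per kb of canonical transcript (log axis) for 8 keratin genes in 6 groups of lines; points are group means and bars run from the lowest to the highest line. *Krt19* in the YEJG lung lines, at 9.23 CPM per kb, lies apart from every other group, whose lowest value is 49.7.

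*Krt19*, a type I keratin without a tail domain, showed the widest gap between origins among the keratins. It was read at 14.1 ± 1.15 CPM in YEJG-M1 and 14.9 ± 0.903 in YEJG-M2. YEJG-FP had 78.4 ± 8.75 CPM, and the parental lines had 137 ± 8.6 in YEJG and 209 ± 11.2 in YEJH. The YEJH fat-pad lines ranged from 176 to 197 CPM and the YEJH lung lines from 148 to 203, so that no YEJH line came near a YEJG lung line. Between the lung lines of both origins, the log2 fold change of YEJG against YEJH was -3.57 (SE 0.14, adjusted p = 2.4e-05, edgeR).

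*Krt7*, *Krt8* and *Krt18*, the simple keratins with the highest values, were lower in the YEJG lung lines by smaller amounts. *Krt7* had 556 ± 54 CPM in YEJG-M1, 885 ± 71.1 in YEJG-M2 and 2244 ± 90.7 in YEJG-FP, against 2291 to 3382 across the YEJH derived lines. *Krt8* had 1735 and 1356 CPM in the YEJG lung lines against 2302 to 3523, and *Krt18* had 1149 and 1034 against 1875 to 2703. Between lung lines the log2 fold change was -2.03 (SE 0.23) for *Krt7*, -0.96 (SE 0.16) for *Krt8* and -1.13 (SE 0.14) for *Krt18*, each with an adjusted p of 0.00278 or less. *Krt8* and *Krt18*, which form the filament pair and lie beside each other on chromosome 15 of GRCm39 (101905133 to 101912917 and 101936615 to 101940462), moved by similar amounts.

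*Krt14* and *Krt6a* were highest in the parental lines. *Krt14* stood at 1366 ± 64.8 CPM in parental YEJG and 745 ± 156 in parental YEJH. It fell to 495 ± 53.2 in YEJG-FP and to 148 ± 7.79 and 130 ± 6.25 in YEJG-M1 and YEJG-M2, and the YEJH derived lines held between 208 and 487. *Krt6a*, a keratin of basal and wounded epithelium, had 175 ± 18.4 CPM in parental YEJG and 28.5 ± 8.4 in parental YEJH, against 6.69 in YEJG-FP, 4.82 and 1.59 in the YEJG lung lines and 3.43 to 15.5 in the YEJH derived lines. No derived line reached its own parent for either gene. *Krt6a* has the close copy *Krt6b*, and how reads were shared between them is uncertain.

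*Krt80* and *Krt17* complete the keratins with readable counts. *Krt80*, a filament protein linked to desmosomes, was highest in parental YEJG at 119 CPM and in YEJG-FP at 80.6, and the YEJG lung lines had 34.8 and 49.7 against 49.99 to 78.0 in the YEJH derived lines. *Krt17* stayed between 0.409 and 1.46 CPM in all 15 lines and was called in none of the comparisons between groups. Among 8 keratins tested between lung lines, 6 were lower in YEJG and 0 higher, where 17.8% of all genes were lower and 16.7% higher.

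The adhesion receptors were led by *Cdh1*, which codes for E-cadherin, and *Epcam*, an epithelial adhesion molecule. *Cdh1* (chromosome 8, 107329941 to 107396880) had 61.1 ± 1.67 CPM in YEJG-M1, 104 ± 5.07 in YEJG-M2, 257 ± 11.9 in YEJG-FP and 328 ± 24.1 in parental YEJG. In YEJH it had 420 ± 38.5 CPM in the parental line, 397 ± 22.6 in the fat-pad lines and 391 ± 44.8 in the lung lines (SD, n = 5 lines each). The YEJH values overlapped between sites, whereas the 4 YEJG lines all lay below the lowest YEJH line at 343 CPM.

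*Epcam* (chromosome 17, 87943407 to 87958557) followed the same order among the YEJG lines, but its parental YEJG value lay above all YEJH derived lines. It had 127 ± 6.95 CPM in YEJG-M1, 198 ± 9.38 in YEJG-M2, 344 ± 13 in YEJG-FP and 687 ± 40.3 in parental YEJG, against 577 to 679 in the YEJH derived lines and 742 ± 18.6 in parental YEJH. Between lung lines the log2 fold change was -1.94 (SE 0.17, adjusted p = 0.000185) for *Epcam* and -2.24 (SE 0.21, adjusted p = 0.000262) for *Cdh1* by edgeR.

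The neural cadherin gene *Cdh2*, whose gain often accompanies loss of E-cadherin, was not called between origins. It had 126 and 122 CPM in the YEJG lung lines, inside the YEJH derived range of 53.7 to 159. The lowest *Cdh2* value of all lines was 45.7 ± 2.2 CPM in parental YEJG and the highest 179.6 ± 12.7 in parental YEJH, single lines with no test. Within the YEJG lines *Cdh2* was 81.7 CPM in YEJG-FP, between the parent and the lung lines.

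Among tight-junction genes, *Cldn7* departed from the order of the other members. It had 142 ± 6.89 CPM in parental YEJG and 4.17 ± 0.219 in YEJG-FP, a 34.1-fold lower value in the only YEJG fat-pad line. The YEJG lung lines had 16.9 ± 0.398 and 19.3 ± 1.66 CPM, which was above YEJG-FP and below every YEJH line. The YEJH derived lines ranged from 66.3 to 148 CPM and parental YEJH had 117 ± 15. The low value of YEJG-FP stood in all 3 of its repeats, at 4.37, 4.21 and 3.94 CPM.

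*Cldn3* and *Cldn4*, claudins of simple epithelia, and *Cldn1* and *Ocln* were also lower in the YEJG lung lines. *Cldn4* had 28.1 and 64.3 CPM there against 146 to 276 in the YEJH derived lines, with YEJG-FP at 80.3. *Cldn3* had 51.3 and 96.6 CPM against 229 to 345, *Cldn1* 23.5 and 13.9 against 46.3 to 75.7, and *Ocln*, which codes for occludin, 13.1 and 20.9 against 32.1 to 61.3. The groups did not overlap for any of these 4 genes. *Tjp1*, which codes for the junction scaffold ZO-1, did not overlap either, with 178 and 202 CPM against 207 to 265, but by less, and was the tight-junction member not called between lung lines (log2 fold change -0.26, SE 0.11, adjusted p = 0.102 by edgeR, and 0.0116 by limma).

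Promoter windows of the junction genes were examined because ZEB and SNAI proteins are known to bind E-boxes of the form CAGGTG, which reads CACCTG on the other strand. RefSeq promoters of GRCm38.p6 were matched for 23 of the 44 members, and the 250 bases before the start were searched on both strands. Of the 23, 10 held the motif in at least 1 window, and 19.4% of all 27025 genes in the table did. *Epcam*, *Cldn7* and *Ocln* held it at 2 places, which 2.39% of genes did, and 1 of 2 RefSeq starts each carried the *Cldn7* and *Ocln* matches. The windows of these 3 genes and of *Cldn4*, the claudin whose value ran most nearly opposite to *Zeb1* among YEJH lines, carry the motif in capitals. In order they lie at chr17:87635729-87635978 on the forward strand, chr11:69965171-69965420 on the forward strand, chr13:100552499-100552748 on the reverse strand and chr5:134946935-134947184 on the reverse strand.
Epcam: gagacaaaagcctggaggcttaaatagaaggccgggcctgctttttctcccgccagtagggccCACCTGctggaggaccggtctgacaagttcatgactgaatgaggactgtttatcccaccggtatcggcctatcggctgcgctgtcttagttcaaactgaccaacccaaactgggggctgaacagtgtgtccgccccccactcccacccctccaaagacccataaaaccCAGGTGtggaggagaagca
Cldn7: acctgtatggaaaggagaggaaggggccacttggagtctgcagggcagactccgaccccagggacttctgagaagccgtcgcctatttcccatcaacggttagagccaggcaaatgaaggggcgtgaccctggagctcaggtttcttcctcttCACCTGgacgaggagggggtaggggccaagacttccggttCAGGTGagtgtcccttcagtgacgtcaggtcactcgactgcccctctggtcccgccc
Ocln: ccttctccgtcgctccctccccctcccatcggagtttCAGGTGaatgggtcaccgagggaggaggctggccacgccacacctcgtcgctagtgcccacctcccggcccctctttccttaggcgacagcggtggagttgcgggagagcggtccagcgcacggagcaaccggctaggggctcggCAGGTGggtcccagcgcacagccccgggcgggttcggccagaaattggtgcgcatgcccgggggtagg
Cldn4: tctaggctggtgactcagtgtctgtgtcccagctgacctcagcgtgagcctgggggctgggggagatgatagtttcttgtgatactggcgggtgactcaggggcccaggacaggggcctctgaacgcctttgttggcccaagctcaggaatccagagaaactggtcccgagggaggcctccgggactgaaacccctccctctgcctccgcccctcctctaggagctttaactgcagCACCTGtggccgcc
The motif begins 187 and 19 bases before the start in *Epcam*, 97 and 57 in *Cldn7*, 213 and 68 in *Ocln* and 14 in *Cldn4*. The other members with a match were *Krt5*, *Krt7*, *Krt8*, *Krt18*, *Krt23* and *Snai1*. No match stood in the windows of *Cldn1*, *Cldn3*, *Tjp1*, *Dsp*, *Jup*, *Krt14*, *Krt20*, *Zeb2*, *Twist1*, *Twist2*, *Vim*, *Acta2* and *S100a4*. *Cdh1* was not among the members with a matched promoter. A match is a run of letters and no measure of binding, and binding was not measured in these lines.

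All 5 desmosome genes with readable counts were lower in the YEJG lung lines. *Dsp*, which codes for desmoplakin, the link between desmosome and keratin, had 132 ± 9.12 CPM in YEJG-M1, 153 ± 2.58 in YEJG-M2 and 443 ± 27.9 in YEJG-FP. The YEJH derived lines were held within 512 to 602 CPM, and the parental lines had 528 and 514. *Dsg2*, the desmoglein cadherin of simple epithelia, had 3.31 and 3.42 CPM in the YEJG lung lines, 20.4 in YEJG-FP and 12.6 to 38.1 in the YEJH derived lines. For both genes YEJG-FP was much nearer to the YEJH lines than to the YEJG lung lines.

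The plaque proteins followed. *Jup*, which codes for plakoglobin, had 96.8 and 115 CPM in the YEJG lung lines, 181 in YEJG-FP and 220 to 322 in the YEJH derived lines. *Pkp3* had 45.8 and 67.0 CPM, 90.0 and 149 to 170 in the same order, and *Pkp1* had 162 and 219, 352 and 327 to 457. All 5 tested desmosome genes were lower in YEJG than in YEJH lung lines, with log2 fold changes from -2.84 (*Dsg2*, SE 0.44) to -0.99 (*Pkp1*, SE 0.16) and adjusted p values of 0.00276 or less by edgeR, where 17.8% of all genes were lower.

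**Figure D3:**
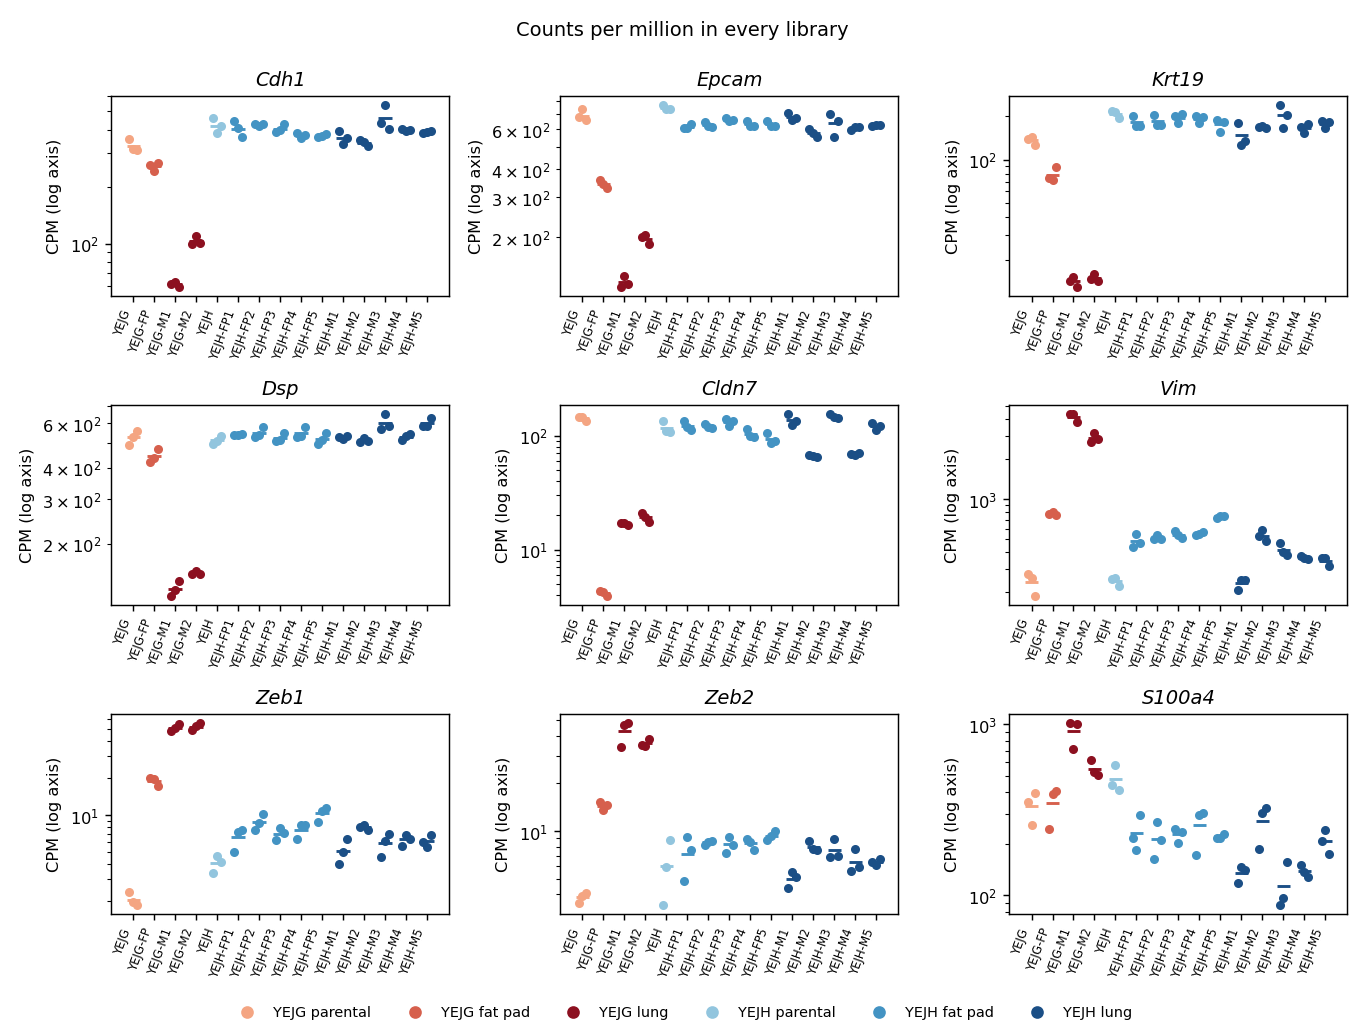
CPM (log axis) of 9 members in all 45 libraries; each point is a library, each short bar the mean of a line, and colour gives origin and site. YEJG-M1 and YEJG-M2 lie below the other lines for *Cdh1*, *Epcam*, *Krt19* and *Dsp* and above them for *Vim*, *Zeb1*, *Zeb2* and *S100a4*, whereas YEJG-FP, at 4.17 CPM, is the lowest line for *Cldn7*.

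Epithelial regulators were lower in the YEJG lung lines as well. *Grhl2*, a transcription factor of junction genes, had 26.5 ± 1.88 and 34.9 ± 1.04 CPM in YEJG-M1 and YEJG-M2, and the other 13 lines held between 92.1 and 123, YEJG-FP included at 94.0. *Esrp1*, an epithelial splicing factor, had 32.9 and 51.5 CPM against 118 in YEJG-FP and 136 to 210 in the YEJH derived lines. *Esrp2* had 10.5 and 18.3 against 29.9 to 40.1, and *Ovol1*, a repressor of ZEB genes, 2.81 and 5.05 against 8.30 to 11.7. All 4 were lower in YEJG among lung lines, with log2 fold changes of -1.84 (SE 0.14) for *Grhl2*, -1.98 (SE 0.24) for *Esrp1*, -1.31 (SE 0.22) for *Esrp2* and -1.39 (SE 0.25) for *Ovol1* and adjusted p values of 0.00406 or less, where 17.8% of all genes were lower. *Trp63*, the master regulator of basal cells, had at most 0.427 CPM in any line and 134 reads in all.

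Among the mesenchymal regulators, *Zeb1*, *Zeb2* and *Twist2* were higher in the YEJG lung lines. *Zeb1* had 51.4 ± 3.34 CPM in YEJG-M1, 52.4 ± 3.49 in YEJG-M2 and 18.9 ± 1.46 in YEJG-FP. It had 5.10 to 10.4 CPM in the YEJH derived lines, 4.03 in parental YEJH and 2.05 ± 0.26 in parental YEJG, the lowest line, from which the YEJG lung lines differed 25.3-fold. *Zeb2* (chromosome 2, 44873644 to 45007464) had 42.9 ± 7.84, 35.8 ± 2.07 and 14.5 ± 0.87 CPM in the same 3 YEJG lines, 5.01 to 9.36 in the YEJH derived lines and 3.83 in parental YEJG. Between lung lines the log2 fold change was 3.04 (SE 0.13, adjusted p = 2.73e-05) for *Zeb1* and 2.57 (SE 0.16, adjusted p = 7.39e-05) for *Zeb2* by edgeR.

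Of the others, *Twist2* had 9.56 and 9.44 CPM in the YEJG lung lines against 2.07 to 4.68 in the YEJH derived lines, with YEJG-FP at 4.01 (log2 fold change between lung lines 1.45, SE 0.24, adjusted p = 0.00307). *Twist1* differed little, with 30.7 and 29.1 CPM against 24.2 to 29.4, although parental YEJG had only 18.04 ± 2.01. *Snai2*, which codes for Slug, had 1.91 CPM in YEJG-M1 and 4.31 in YEJG-M2, and *Snai1* had 9.74 and 3.65, so that the 2 YEJG lung lines ran in opposite orders for the SNAI genes. Neither SNAI gene nor *Twist1* was called between lung lines (adjusted p from 0.0827 to 0.569 by edgeR). Limma called *Snai2* there (log2 fold change 1.10, adjusted p = 0.00257), as did edgeR with series B only (adjusted p = 0.0375) and without YEJH-M2 (0.0409). *Snai1* went the other way, at -1.14 between lung lines when YEJG-M1 was left out and YEJG-M2 stood alone. Against YEJG-FP, the YEJG lung lines had a *Snai1* log2 fold change of -0.80 by edgeR, not called, and -0.97 by limma, which called it lower.

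The intermediate filament gene *Vim* (chromosome 2, 13578738 to 13587639) had its highest values in the YEJG lung lines. It had 4162 ± 314 CPM in YEJG-M1, 2881 ± 244 in YEJG-M2, 781 ± 16.2 in YEJG-FP and 238 ± 44.5 in parental YEJG. In YEJH it had 244 ± 17.9 CPM in the parental line, 485 to 743 in the fat-pad lines and 234 to 534 in the lung lines. The YEJG lung lines thus exceeded the highest YEJH line several-fold, and YEJG-FP exceeded it slightly (log2 fold change between lung lines 3.22, SE 0.25, adjusted p = 0.00014).

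The contractile genes were nearly silent outside the YEJG lung lines. *Acta2*, which codes for smooth muscle actin, had 59 reads over the 3 repeats of YEJG-M1 and 295 in YEJG-M2, 1 in YEJG-FP and 0 to 8 in each of the other lines. *Tagln*, which codes for transgelin, had 175 and 265 reads in the YEJG lung lines, 39 in YEJG-FP and 3 to 11 in each of the other lines. In CPM, *Acta2* stood at 1.41 and 6.46 and *Tagln* at 4.24 and 5.96 in these lung lines, low values beside *Vim*. *S100a4*, a calcium-binding protein gene used as a fibroblast and metastasis marker, had 908 ± 169 and 549 ± 57.1 CPM in the YEJG lung lines, 347 ± 89.9 in YEJG-FP and 114 to 272 in the YEJH derived lines (log2 fold change between lung lines 2.05, SE 0.32, adjusted p = 0.00221). The parents ran the other way for *S100a4*, with 477 ± 90.7 CPM in parental YEJH and 334 ± 70.5 in parental YEJG, so that parental YEJH lay above YEJG-FP and every YEJH derived line.

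Lung lines were next set against fat-pad lines, a contrast that the study draws for a gene outside this set. The grouping here, all 7 lung against all 6 fat-pad lines, follows the labels, and the study does not name the lines it compared, which may be fewer. No member passed: 0 of 34 tested members had an adjusted p under 0.05 by edgeR, as had 0% of the 15056 genes tested (784 genes, *Krt14* alone among members, had an unadjusted p under 0.05). DESeq2 called 0 members, and limma with libraries kept apart called *Krt14* and *Krt6a*, both lower in lung lines, and 0.595% of all genes. The median log2 fold change was -0.14 over the 34 members and 0.0093 over all genes. Values for named members ranged widely between lines of a site: *Vim* had a log2 fold change of 1.08 with an SE of 0.66 and *Zeb1* one of 0.96 with an SE of 0.64, and *Krt14*, with the smallest p, had -0.73 with an SE of 0.25 (adjusted p = 0.909). The lung group holds 2 YEJG lines of 7 and the fat-pad group 1 of 6. With origin as covariate, 0 of 36 members passed, beside 0.019% of all genes, and the log2 fold change became -0.17 for *Vim* and -0.029 for *Zeb1*.

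Within YEJH alone, with 5 lung against 5 fat-pad lines, 0 of 34 members passed either, against 0.0467% of all genes tested (7 genes). Leaving out 1 line moved the gene count between 2 (without YEJH-M2) and 110 (without YEJH-M5), with 0 members called each time. At an unadjusted p under 0.05 there were 7 members, *Krt80*, *Vim*, *Cldn4*, *Zeb2*, *Zeb1*, *Krt14* and *Grhl2*, beside 1131 of the 14990 genes tested. *Krt80* had 58.2 to 78.0 CPM in the lung lines and 49.99 to 56.9 in the fat-pad lines, with no overlap (log2 fold change 0.30, SE 0.077, adjusted p = 0.261 by edgeR, and 0.0371 by DESeq2, which called this member only). *Vim* had a log2 fold change of -0.59 (SE 0.18), *Zeb1* of -0.38 (SE 0.14) and *Zeb2* of -0.33 (SE 0.12), all with adjusted p values of 0.376 or more and overlapping lines. With libraries kept apart, limma called 5 members, *Vim*, *Krt14* and *Krt6a* lower in lung lines and *Krt80* and *Cldn4* higher, and 2.49% of all genes. The median over the 34 members was -0.0009, and over all genes 0.0069.

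Within YEJG, the 2 lung lines were compared with the single fat-pad line in a fit over all 13 derived lines, in which YEJG-FP is assumed to vary like the others. This comparison was chosen after the data had been seen. Of 37 tested members, 24 passed, 7 higher and 17 lower in lung lines, against 17.2% of all genes tested, of which 8.85% were higher and 8.36% lower. The higher members were *Zeb1*, *Zeb2*, *Twist2*, *Vim*, *Tagln*, *Acta2* and *Cldn7*. The lower members were *Krt7*, *Krt14*, *Krt19* and *Krt80*, *Cdh1* and *Epcam*, *Cldn1* and *Cldn3*, *Dsp*, *Dsg2*, *Pkp1*, *Pkp3* and *Jup*, and *Grhl2*, *Ovol1*, *Esrp1* and *Esrp2*. *Dsg2* had the lowest log2 fold change at -2.59 (SE 0.44, adjusted p = 0.00189), followed by *Krt19* at -2.41 (SE 0.14, adjusted p = 5.0e-06). *Tagln* rose by 2.40 (SE 0.49, adjusted p = 0.00533), *Vim* by 2.19 (SE 0.40, adjusted p = 0.00312), and *Cldn7* by 2.12 (SE 0.51, adjusted p = 0.0142). *Acta2*, counted among the 7 higher, passed the expression filter only through the YEJG lung lines, so its call adds nothing to its read counts. It had 354 reads in the lung lines against 1 in YEJG-FP, a 168-fold ratio per read sequenced with an exact 95% interval of 30.02 to 6667 for counting error only. Of the 354 reads, 295 came from YEJG-M2, and the log2 fold change of *Acta2* was 5.66 without YEJG-M2 and 7.90 without YEJG-M1. Of the junction genes among the members, *Cldn7* alone was called higher in the YEJG lung lines than in YEJG-FP. The median over members was -0.78, and over all genes -0.0030.

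The lung contrast of the YEJG lines was set against that of the YEJH lines by an edgeR interaction term. Its YEJG fat-pad arm is YEJG-FP alone, assumed to vary like the other lines, so that a difference between origins and a difference of this line cannot be told apart. The term passed for 23 of 37 members, 6 higher and 17 lower in YEJG, against 13.3% of all genes tested, with 6.74% higher and 6.61% lower. *Vim* had an interaction of 2.77 on the log2 scale (SE 0.45, adjusted p = 0.00207), *Zeb1* of 1.84 (SE 0.29, adjusted p = 0.00177) and *Zeb2* of 1.80 (SE 0.25, adjusted p = 0.000965). These 3 genes had positive lung contrasts in YEJG and negative ones in YEJH. *Tagln*, also among the higher members, had too few reads to be tested within YEJH, so its term rests on the YEJG lines. *Dsg2* had an interaction of -2.36 (SE 0.49, adjusted p = 0.00808), *Krt19* of -2.29 (SE 0.16, adjusted p = 1.65e-05), *Krt7* of -1.79 (SE 0.27, adjusted p = 0.00146), *Grhl2* of -1.75 (SE 0.17, adjusted p = 0.000122) and *Dsp* of -1.65 (SE 0.11, adjusted p = 1.65e-05). All 5 tested desmosome genes and 4 of 5 epithelial regulators were in the lower group. *Cldn1* had the largest adjusted p among those called, 0.0459, and was not called under 13 of 26 alternative settings.

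**Figure D4:**
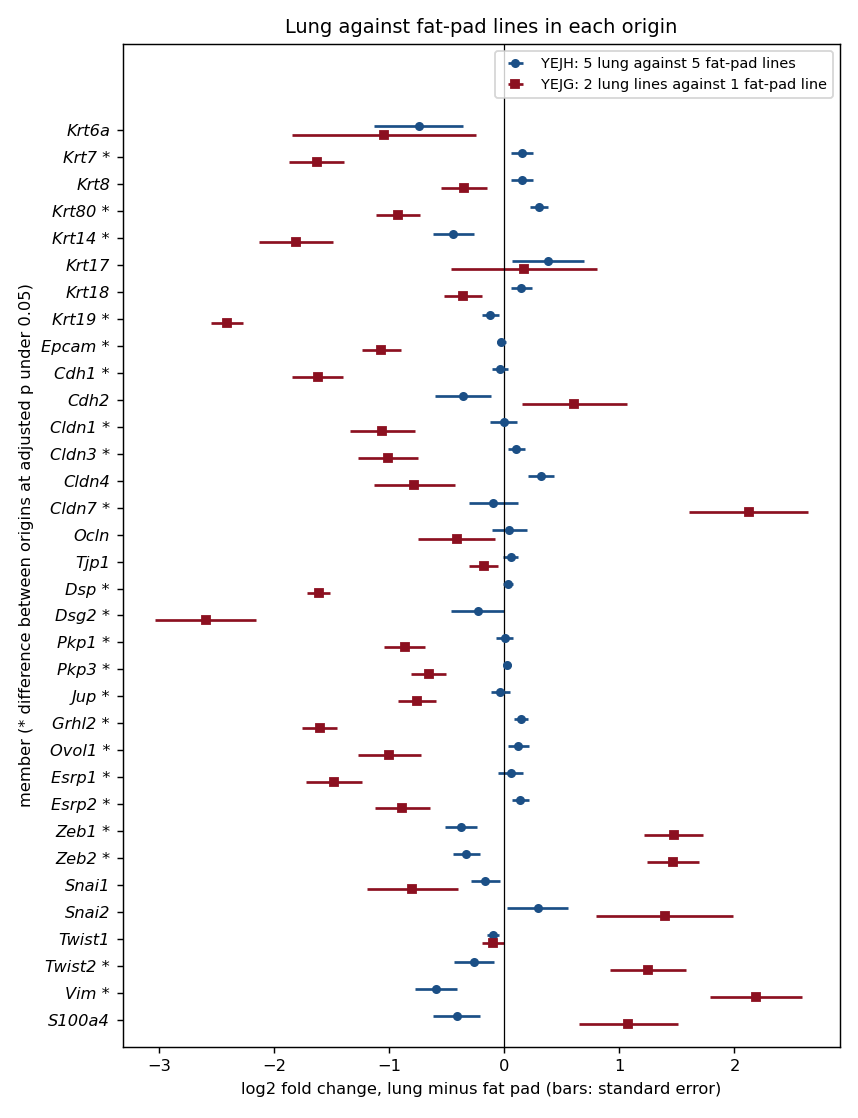
Log2 fold change of lung minus fat-pad lines for the members tested in both origins; circles are YEJH (5 lung against 5 fat-pad lines), squares are YEJG (2 lung lines against 1), bars are standard errors and an asterisk marks an adjusted p under 0.05 for the difference between origins. Circles stay between -0.74 (*Krt6a*) and 0.38 (*Krt17*), whereas squares run from -2.59 (*Dsg2*) to 2.19 (*Vim*).

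Origin was compared across all 13 derived lines with site held. Of 36 tested members 27 passed, 7 higher and 20 lower in YEJG, against 40.8% of all genes, of which 19.2% were higher and 21.6% lower. The share called was thus 75% of tested members beside 40.8% of genes. Scaling by library totals alone moved the share of higher calls among all genes called from 47.0% to 57.3% and left the member counts at 7 and 20. *Vim* had a log2 fold change of 2.54 (SE 0.40), *Zeb1* of 2.51 (SE 0.27) and *Zeb2* of 2.04 (SE 0.25), and *Cldn7* of -3.15 (SE 0.42) and *Krt19* of -2.47 (SE 0.37), all with adjusted p values of 0.000338 or less by edgeR. *Tagln*, at 4.29 (SE 0.44), passed the expression filter through the YEJG lines, so its call adds nothing to its read counts. With at least 10 counts required in every line, 26 of 34 members passed, 6 higher and 20 lower, beside 44.6% of all genes. Without YEJG-FP the log2 fold change was 5.17 for *Tagln*, 3.21 for *Vim* and -3.57 for *Krt19*. *S100a4*, *Twist2* and *Twist1* were also higher, *Twist1* by only 0.15 (SE 0.052, adjusted p = 0.0313). The *Twist1* call was lost under 8 of 29 alternative settings, and *Twist1* differed between naming series by 0.14. The lower members were *Krt7*, *Krt8*, *Krt18* and *Krt19*, *Epcam* and *Cdh1*, *Cldn1*, *Cldn3*, *Cldn4*, *Cldn7* and *Ocln*, all 5 tested desmosome genes, and *Grhl2*, *Ovol1*, *Esrp1* and *Esrp2*. The median over members was -0.90 and over all genes 0.0032.

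Among lung lines alone, 2 of YEJG against 5 of YEJH, 29 of 37 members passed, 7 higher and 22 lower, against 34.5% of all genes, with 16.7% higher and 17.8% lower. The higher members were *Zeb1*, *Zeb2*, *Twist2*, *Vim*, *S100a4*, *Tagln* at a log2 fold change of 5.16 (SE 0.37) and *Acta2* at 6.33 (SE 0.89). The *Acta2* value is set against 10 reads in the 5 YEJH lung lines together. It was 4.83 without YEJG-M2 and 8.08 without YEJH-M2. *Acta2* and *Tagln* are nearly silent in YEJH and passed the expression filter here through the YEJG lung lines. Their calls therefore add nothing to their read counts. With at least 10 counts required in every line, 27 of 34 members passed, 5 higher and 22 lower, beside 36.3% of all genes. Without YEJG-M1 the share of all genes called fell to 18.8%, while 28 members passed. The lower members were *Krt7*, *Krt8*, *Krt14*, *Krt18*, *Krt19* and *Krt80*, *Cdh1* and *Epcam*, *Cldn1*, *Cldn3*, *Cldn4*, *Cldn7* and *Ocln*, the 5 tested desmosome genes, and *Grhl2*, *Ovol1*, *Esrp1* and *Esrp2*. YEJG-FP lay between the ranges of the YEJG lung lines and the YEJH derived lines for 21 of these 29 members. The same count was not made over all genes, so this place cannot be read as particular to the members. YEJG-FP lay within the YEJH range for *Twist2*, *Grhl2*, *Pkp1*, *Acta2* and *Dsg2*, on the far side of the YEJH lines for *Krt80* and *Krt14*, and beyond the YEJG lung lines for *Cldn7*. With fat-pad lines only, 1 of YEJG against 5 of YEJH, 23 of 36 members passed, 6 higher and 17 lower, against 30.6% of all genes, with 13.7% higher and 16.9% lower. This fit was added after the data had been seen, its spread comes from the 5 YEJH lines alone, and YEJG-FP is assumed to vary like them, so that origin and line cannot be told apart in it. The log2 fold change there was -4.79 for *Cldn7* (adjusted p = 1.1e-05), 1.204 for *Zeb1* (adjusted p = 0.0020) and 0.45 for *Vim* (adjusted p = 0.0951). *Krt7*, *Grhl2*, *Ovol1* and *Pkp1*, all lower across the 13 lines, were not called in it, with log2 fold changes from -0.25 to -0.081. Of the members that were higher across the 13 lines, *Vim*, *Twist1* at 0.17 (adjusted p = 0.0615) and *Twist2* at -0.043 (adjusted p = 0.873) were not called in it either, and *Twist2* had the opposite sign. *Cdh2* at -0.60 (adjusted p = 0.0143), *Krt80* at 0.57 (adjusted p = 0.000512) and *Snai1* at 0.35 (adjusted p = 0.0259) were called in it and not across the 13 lines.

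Derived lines were compared with their parents with origin held. Of 37 tested members 7 passed, 0 higher and 7 lower in derived lines, against 7.77% of all genes, of which 3.55% were higher and 4.23% lower. *Krt6a* had a log2 fold change of -3.99 (SE 0.76, adjusted p = 0.00759) and *Krt14* of -1.75 (SE 0.41, adjusted p = 0.0207). The others were *Cldn7* at -2.14 (SE 0.61), *Ocln* at -1.15 (SE 0.27), *Pkp3* at -1.12 (SE 0.21), *Epcam* at -0.98 (SE 0.27) and *Jup* at -0.88 (SE 0.19), with adjusted p values from 0.00759 to 0.0466. No higher call was made although *Zeb1* had 1.90 (SE 0.60, adjusted p = 0.0687) and *Vim* 1.77 (SE 0.61, adjusted p = 0.0893). In all, 16 members had an unadjusted p under 0.05, beside 3866 of the 16361 genes tested. DESeq2 called 9 members, *Zeb1* and *Vim* among them as higher, and 12.4% of all genes. Scaling by library totals alone moved the share of higher calls among all genes called from 45.6% to 59.3%, with 0 members higher and 6 lower. The count rests on the parental lines, which are 1 per origin: without parental YEJG 0 members passed, beside 0.826% of all genes. Without parental YEJH 19 passed, 6 of them higher, beside 13.4% of all genes, and without YEJG-FP 15, of which 4 were higher, beside 13.2%. With YEJH lines only 1 passed, beside 3.4% of all genes, which was *Pkp3* at -0.45 (adjusted p = 0.0024). In YEJH lines only, *Krt6a* had -1.57 and *Krt14* -0.99, with adjusted p values of 0.195 and 0.122, and *Cldn7* had -0.056, *Ocln* -0.42, *Epcam* -0.24 and *Jup* -0.47, none of them called. *Cldn7* was not called under 22 of 31 alternative settings and *Epcam* under 16 of 31.

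The parental lines were compared as single lines with no test. The ratio of YEJG to YEJH was 1.03 for *Dsp*, 0.925 for *Epcam*, 0.968 for *Esrp1*, 0.972 for *Ocln* and 1.05 for *Krt18*. It was further from 1 for other epithelial members, at 0.644 for *Cldn4*, 0.655 for *Krt19*, 0.662 for *Cldn1*, 0.761 for *Pkp1*, 0.782 for *Cdh1* and 0.786 for *Cldn3*, and above 1 at 1.14 for *Grhl2*, 1.21 for *Cldn7*, 1.23 for *Krt7* and *Esrp2*, 1.25 for *Krt8* and 1.83 for *Krt14*. *Krt6a* was 6.13-fold and *Krt80* 2.41-fold higher in YEJG, and *Cdh2*, *Twist2* and *Zeb1* were lower in YEJG, at 0.254, 0.245 and 0.508 of the YEJH value. The YEJG lung lines, with the highest *Zeb1*, *Zeb2* and *Twist2* of all lines, thus carry the name of the parent with the lower values of these genes.

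Among the 10 derived YEJH lines, differences between lines were set against the spread between technical repeats, so that p values here measure only that spread. Repeat 2 of YEJH-M3, which enters this spread, stood apart from the other repeats of its line. A chi-square of the counts per degree of freedom was 128.5 and 90.4 for its pairs, and at most 48.0 for all other pairs of repeats. Of 34 tested members 29 passed, against 23.9% of all genes. The count was 26, 19 and 12 when repeat 1, 2 or 3 was left out, beside 19.1%, 11.5% and 9.87% of all genes. *Cdh2* had the largest F at 78.7 (adjusted p = 1.46e-13 by edgeR), followed by *Vim* at 54.2, *Cldn7* at 40.9, *Krt14* at 33.5, *Ocln* at 32.6 and *Krt6a* at 24.4. Those not called were *Ovol1*, *Krt19*, *Epcam*, *Twist1* and *Pkp3*.

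*Cdh2* was lowest in YEJH-M1 at 53.7 ± 2.14 CPM and YEJH-M4 at 67.0 ± 8.07, and highest in YEJH-M5 at 159 ± 17.1 and YEJH-FP5 at 150 ± 10.1. *Vim* was lowest in YEJH-M1 at 234 ± 23.2 CPM, near its parent, and highest in YEJH-FP5 at 743 ± 12.8. *Cldn7* fell into 66.3 ± 1.13 CPM in YEJH-M2 and 69.3 ± 1.48 in YEJH-M4 against 94.4 to 148 in the other 8 lines. YEJH-M1 was thus the derived line of YEJH with the lowest *Vim*, *Cdh2*, *Zeb1* and *Zeb2* and the highest *Cldn3* and *Cldn4*.

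*Ocln* was lowest in YEJH-M2 at 32.1 ± 1.12 CPM and reached 61.3 ± 0.996 in YEJH-M1. *Krt14* had 208 ± 13.2 CPM in YEJH-M2 and 241 ± 39.6 in YEJH-M3, against 296 to 487 in the others. *Krt6a* was highest in YEJH-M4 at 15.5 ± 2.3 CPM and YEJH-FP1 at 15.04 ± 0.86 and lowest in YEJH-M5 at 3.43 ± 0.329. Lung lines held both the lowest and the highest value for *Cdh2*, *Cldn7*, *Ocln* and *Krt6a*, and fat-pad lines lay closer together.

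**Figure D5:**
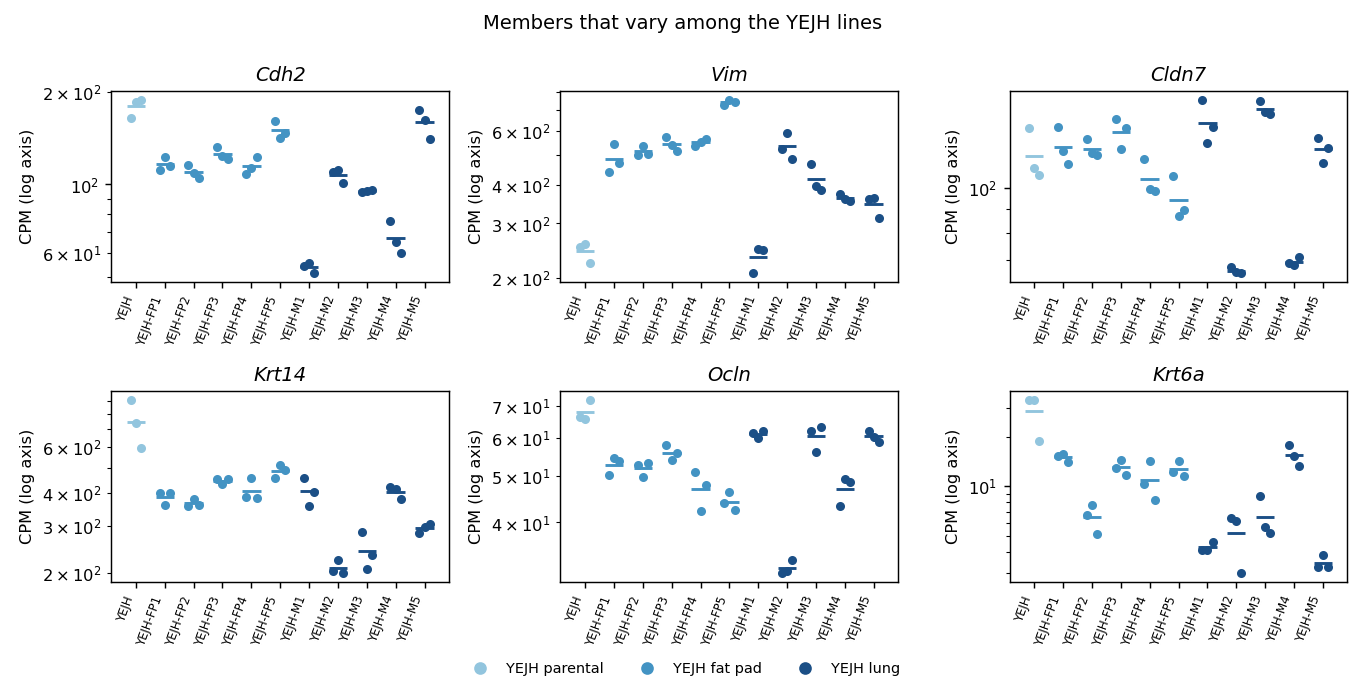
CPM (log axis) of the 6 members with the largest F among YEJH derived lines, with the parental line at the left; points are technical repeats and short bars line means. Fat-pad lines (mid blue) form a narrower band than lung lines (dark blue) for *Cdh2*, *Cldn7* and *Ocln*, and *Krt14* and *Krt6a* are highest in the parental line.

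Across these 10 lines the members were ranked by Spearman's rho, as a description over 561 pairs with a median rho of 0.055. The lines share a parent, a culture protocol and the scaling of counts. *Krt8* and *Krt18* had a rho of 0.96, *Zeb1* and *Zeb2* 0.89, and *Zeb2* and *Vim* 0.92. *Cldn4* ran opposite to *Zeb1* and *Twist1*, each with a rho of -0.93, and *Esrp2* opposite to *Vim* at -0.87. *Ocln* followed *Cldn4* and *Cldn7*, both at 0.88. The range of *Zeb1* behind these values was narrow, from 5.10 to 10.4 CPM.

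Related genes outside the 44 were counted from lists of the same pathways. Of 20 tested further tight-junction and polarity genes, 16 were lower and 0 higher in YEJG than in YEJH lung lines, where 17.8% of all genes were lower and 16.7% higher, with a median log2 fold change of -1.38 (all genes 0.0013), and the 3 with the smallest p were *F11r* at -1.30, *Llgl2* at -2.23 and *Patj* at -1.95. Of 11 further desmosome and adherens genes, 7 were lower and 1 higher, led by *Ctnnd1* at -0.72, *Perp* at -0.66 and *Dsg3* at -2.15. Of 9 hemidesmosome genes, whose products fix cells to the basement membrane, 6 were lower and 1 higher, led by *Itgb4* at -2.07, *Itga6* at -0.89 and *Lamb3* at -2.04. Of 18 further epithelial genes and regulators tested, 12 were lower and 1 higher, among them the protease gene *Prss8* at -1.99 and *Spint2* at -1.88.

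Of 23 tested further mesenchymal genes, 11 were higher and 1 lower in the YEJG lung lines (median 0.65). Within YEJH only 18 of the list could be tested. Genes that passed the expression filter through the YEJG lung lines, such as *Col3a1* at a mean of 0.077 CPM elsewhere, add nothing to their levels by being called. This holds for the later counts of this list too. *Pdgfrb* averaged 0.62 CPM outside the YEJG lung lines. The 3 with the smallest p were the receptor gene *Pdgfrb* at 8.72, the matrix gene *Tnc* at -4.10 and the myosin light chain gene *Myl9* at 5.81, so that *Tnc*, listed as mesenchymal, ran the other way. Of 3 tested further keratins, *Krt10*, *Krt16* and *Krt79*, 0 passed. For the lung contrast within YEJH, 0 genes of any of these lists passed, and the mesenchymal list was led by *Lox* at -1.50 (adjusted p = 0.132). Within YEJG, where lung lines were set against YEJG-FP and 8.36% of all genes were lower and 8.85% higher, 11 of 20 further tight-junction genes were lower, led by *Cxadr* at -1.33, *Cgn* at -1.14 and *F11r* at -0.86, and 6 of 12 desmosome and adherens genes, led by *Perp* at -0.62, *Afdn* at -0.52 and *Pkp4* at -0.30. Of 9 hemidesmosome genes 3 were lower and 2 higher, led by *Itgb4* at -1.10, *Lamb3* at -1.14 and *Dst* at 0.87, and of 19 epithelial genes 11 were lower and 1 higher, among them *Prss8* at -1.53 and *Cd24a* at -0.62. Of 25 mesenchymal genes 8 were higher and 2 lower, led by *Tnc* at -2.09, the collagen crosslinking enzyme gene *Lox* at -4.06 and the integrin gene *Itga5* at 1.66.

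Between derived and parental lines, where 4.23% of all genes were lower and 3.55% higher and member calls fell to 0 without parental YEJG, 5 of 20 tight-junction, 5 of 12 desmosome and adherens, 3 of 9 hemidesmosome and 3 of 18 epithelial genes were lower and 0 higher, and 6 of 24 mesenchymal genes were higher and 0 lower. The genes with the smallest p were *Crb3* at -1.46, *Cldn6* at -1.28 and *Marveld3* at -0.96 for tight junctions, and *Dsg3* at -2.43, *Dsg1b* at -2.42 and *Perp* at -0.53 for desmosomes. They were *Cd151* at -0.33, *Itgb4* at -1.27 and *Itga6* at -0.52 for hemidesmosomes, *Mal2* at -1.67, *Ap1m2* at -1.11 and *Rab25* at -1.02 for epithelial genes, and *Pdgfrb* at 7.55, *Sparc* at 4.71 and *Col5a1* at 3.5 for mesenchymal genes. Of the 3 further keratins *Krt16* was lower at -0.97. By origin across the 13 derived lines, where 40.8% of all genes were called, 16 of 20 tight-junction genes were lower in YEJG and 0 higher, 8 of 12 desmosome and adherens genes lower and 1 higher, and 7 of 9 hemidesmosome genes lower and 0 higher. Of 17 epithelial genes 13 were lower and 1 higher, and of 22 mesenchymal genes 11 were higher and 1 lower. Of the 3 further keratins 2 were higher. For the interaction, where 6.61% of all genes were lower and 6.74% higher, 9 of 20 tight-junction genes were lower and 0 higher, 4 of 12 desmosome and adherens genes lower and 0 higher, 2 of 9 hemidesmosome genes lower and 2 higher, 10 of 19 epithelial genes lower and 1 higher, and 3 of 25 mesenchymal genes higher and 2 lower. Between all lung and all fat-pad lines 0 genes of these lists passed.

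Markers of other cell types were read beside these results. The mammary epithelial list (*Krt8*, *Krt18*, *Krt19*, *Epcam*, *Cdh1*, *Krt14*, *Krt5*), of which *Krt5* was near 0 throughout, summed to 2837 to 3234 CPM in the YEJG lung lines and 4571 to 7474 in the others. The fibroblast list of 7 genes summed to 77.3 to 88.4 CPM in the YEJG lung lines and 1.98 to 11.9 in the others, of which *Pdgfrb* at a mean of 46.6 CPM and *Pdgfra* at 25.6 were the main part, and the fibroblast matrix genes *Col1a1*, *Col1a2* and *Col3a1* averaged 2.54, 4.02 and 3.96, *Dcn* 0.11 and *Lum* 0. The part of other cells in the mesenchymal values was not tested beyond these levels. Leukocyte markers summed to 2.95 to 4.45 CPM against 1.98 to 6.68, endothelial markers to 0.749 at most, lung epithelial markers to 0.433 at most with *Sftpc*, *Sftpb* and *Sftpa1* at 0, and adipocyte markers to 0.0239 at most. Single markers moved with the groups as well. All 5 tested fibroblast markers were higher in YEJG than in YEJH lung lines (16.7% of all genes were), and 3 of 5 in the YEJG lung lines than in YEJG-FP (8.85%). Only 3 of the 7 listed could be tested within YEJH. Markers that passed the expression filter through the YEJG lung lines, such as *Col3a1* at a mean of 0.077 CPM elsewhere, add nothing to their levels by being called. All 5 were also higher in YEJG across the 13 derived lines (19.2%), and 3 of 5 in derived than in parental lines (3.55%). The edgeR interaction passed for 2 of 5 (6.74% of all genes were higher), *Pdgfra* at 3.17 (adjusted p = 0.0178) and *Pdgfrb* at 4.43 (adjusted p = 0.0175). *Pdgfrb*, *Col1a1*, *Col1a2* and *Col3a1* also stand in the mesenchymal list above, so the counts of the 2 lists are not separate results. The leukocyte marker *Csf1r* was higher in the YEJG lung lines than in YEJG-FP (log2 fold change 2.33, SE 0.66, adjusted p = 0.0308 by edgeR) and lower in YEJG than in YEJH across the 13 derived lines (-1.20, SE 0.35, adjusted p = 0.0153), at a mean of 1.83 CPM in the YEJG lung lines, where *Ptprc* stood at 0.067. The endothelial marker *Cdh5*, at most 0.48 CPM in any line, was lower in YEJG than in YEJH lung lines. The part of these markers in the results was not tested. The lung lines held no readable surfactant RNA.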

How the data were processed

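RNA of 15 cell lines was sequenced in technical triplicate by the submitters (polyA selection, TruSeq RNA Library Prep kit v2, NextSeq500). The values are counts per gene that the authors deposited; the submitters' processing notes name FastQC, HISAT2, SAMtools 1.2 and HTSeq and list the human build GRCh38, although the identifiers are mouse Ensembl genes, and the annotation release is not given in the sources used here. The 5 rows that name no gene, holding 31.6% to 43.3% of a library's reads, stayed out of library sizes and tests, and 0 sample columns were left unused. Symbols, positions and lengths came from GENCODE vM39 (GRCm39), which held 92.6% of the 54838 identifiers.

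Counts of the 3 repeats were summed per line and tested with edgeR 4.0.16 (TMM scaling, expression filter, quasi-likelihood F test, Benjamini-Hochberg adjustment over all genes tested, threshold 0.05) in R 4.3.3, with limma 3.58.1 and DESeq2 1.42.0 as alternatives. The standard error (SE) of an edgeR log2 fold change was derived as its absolute value divided by the square root of the F statistic. Differences among YEJH lines were tested on single libraries, whose p values measure technical spread only. The study describes its compared lines as independent and from separate mice, without naming the mouse behind each of the 15 lines. Fits were tested on simulated data. In each comparison between groups the called members were named, those with the largest changes with values. For related lists the genes with the smallest p, up to 3, were named between lung lines, within YEJG and between derived and parental lines, and other comparisons are given by counts. Some genes of these lists are not reported here. The members and lists were chosen with earlier results of these data known. Same-numbered repeats deviated together on average but not in every pair, and same-numbered fat-pad and lung lines did not on average. Scaling, filter, test, naming series, each line and each repeat were varied. Figures were drawn with matplotlib 3.10.9 under Python 3.11.15.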

Additional observations from a re-analysis of the deposited data

Results flagged for a closer look

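YEJG-FP stood apart from the other 5 fat-pad lines, by Dixon's gap criterion, for 14 members. The criterion was applied to members only, so the count cannot be read as particular to them. YEJG-FP was the highest fat-pad line for *Krt80* (80.6 CPM), *Zeb1* (18.9), *Zeb2* (14.5), *Snai1* (11.7) and *S100a4* (347). It was the lowest for *Krt19* (78.4 CPM), *Epcam* (344), *Cdh1* (257), *Cldn7* (4.17), *Ocln* (22.8), *Dsp* (443), *Pkp3* (90.0), *Jup* (181) and *Esrp1* (118). It is the only line of YEJG origin among the 6, so that origin and line cannot be told apart here.

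Single lines stood apart in 5 other groups. YEJH-M4 had the highest *Krt6a* at 15.5 CPM, both among all 7 lung lines and among the 5 of YEJH. YEJG-M2 had the highest *Snai2* among lung lines at 4.31 CPM, YEJH-M1 the highest *Cldn3* among YEJH lung lines at 345, and YEJH-FP5 the highest *Vim* among YEJH fat-pad lines at 743. In all, 19 of 136 groups stood apart, where chance gives about 6.8, and the groups share lines.

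The lung contrast differed between origins for 23 members by the edgeR interaction term, in log2 units of YEJG minus YEJH. It was lower in YEJG for *Dsp* at -1.65, *Krt19* at -2.29, *Grhl2* at -1.75, *Krt7* at -1.79, *Cdh1* at -1.59, *Krt80* at -1.23, *Esrp1* at -1.54, *Epcam* at -1.05 and *Dsg2* at -2.36. It was lower too for *Pkp1* at -0.88, *Pkp3* at -0.68, *Jup* at -0.72, *Esrp2* at -1.03, *Cldn3* at -1.12, *Krt14* at -1.37, *Ovol1* at -1.13 and *Cldn1* at -1.06. It was higher for *Zeb2* at 1.80, *Zeb1* at 1.84, *Vim* at 2.77, *Tagln* at 2.81, *Twist2* at 1.503 and *Cldn7* at 2.21. Each of these values rests on YEJG-FP as the only YEJG fat-pad line.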

How the results depend on the processing

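Of 2841 values of called members under alternative settings, 2736 kept direction and call, 104 kept direction only and 1 reversed, which was *Twist2* between origins with fat-pad lines only, at -0.043 (adjusted p = 0.873). Between lung and fat-pad lines, limma on single libraries, with a correlation within lines, called 2 members, 1 with the repeat number as replicate block and 2 with naming series as covariate, and DESeq2 called 22 genes and limma 77 where edgeR called 0. Within YEJH, DESeq2 called 1 member (153 genes) and limma 5 (319 genes), 4 with the replicate block and 5 with the series covariate. The line number as replicate block gave 0 members. There 11 passed unadjusted, a count that was not made over all genes. Between derived and parental lines, limma called 21 members (2481 genes), 20 with the replicate block and 20 with the series covariate, DESeq2 2027 genes and YEJH lines only 1 member (566 genes). The causes were not tested.

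Leaving out each line or repeat gave 0 to 19 members between derived and parental lines (0 without parental YEJG, 15 without YEJG-FP, 19 without parental YEJH, with 4.05% of all genes without repeat 1 and 12.3% without repeat 3), 12 to 26 among YEJH lines, 18 to 24 for the interaction, 22 to 25 within YEJG, 25 to 31 between origins, 28 to 30 between lung lines, and 0 to 0 for both lung contrasts across origins and within YEJH. Among YEJH lines it was 19 without repeat 2 and 12 without repeat 3. The share of all genes called moved as well when a line or repeat was left out. Between origins it ran from 30.5% without YEJG-M1 to 44.5% without YEJG-FP. Among YEJH lines it ran from 9.87% without repeat 3 to 19.1% without repeat 1. Between lung lines that share fell without YEJG-M1, while 28 members still passed. The member counts alone therefore do not show how far a comparison depends on single lines. The interaction and the YEJG contrast could not be run without YEJG-FP. Deviations correlated at 0.142 between libraries of the same repeat number (-0.218 to 0.573) and at -0.0706 between those of other repeat numbers. Same-numbered repeats thus deviated together on average, and the repeat number entered only alternative fits, as a replicate block. Same-numbered fat-pad and lung lines correlated at -0.0438 and other-numbered ones at 0.0113, so that line numbers were not taken as pairs. In limma on single libraries, without and with the repeat number as replicate block, 31 and 32 members passed between origins (47.8% and 47.5% of all genes), 31 and 31 between lung lines (45.5% and 44.6%), 29 and 29 for the interaction (24.1% and 24.2%) and 29 and 29 within YEJG (27.5% and 27.7%). In edgeR on single libraries the replicate block moved the count from 29 to 31 among YEJH lines (23.9% to 33.0% of all genes) and from 4 to 5 between series (15.9% to 17.7%). Members under about 1 CPM, such as *Krt17* and *Trp63*, rest on few reads per library.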
